A study of Homo sapiens with 6 samples.

Results

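The mRNA levels of 50 splicing factor genes were compared between atorvastatin-treated and untreated HepG2 cells. A gene was taken when its symbol began with *SRSF*, *HNRNP*, *SF3A*, *SF3B*, *SNRP*, *PRPF*, *U2AF* or *RBFOX* and a transcript cluster of the exon array carried that symbol alone. This gave 50 genes, each with 1 cluster, of 12676 genes with a 1-symbol cluster in the series. HepG2 is a hepatoblastoma-derived liver cell line. All 6 arrays came from HepG2 cells kept in medium with lipoprotein-deficient serum in place of fetal bovine serum: 3 control samples received no drug and 3 received 10 µM atorvastatin for 24 h. No genotype differed between the groups, and the samples were triplicate wells of 1 cell line. Nothing in the labels says that the wells were separate cultures, so p-values measured only the spread between these samples, which may be technical.

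Introns are removed by the spliceosome, which is built on each intron from small nuclear ribonucleoproteins (snRNPs) and many further proteins. U1 recognises the 5′ splice site, the U2AF dimer reads the end of the intron, and U2 with its SF3A and SF3B complexes holds the branch point until the U4/U6 and U5 particles join. SR proteins mostly promote the use of nearby exons, and hnRNP proteins often repress it, so that the balance between them shapes exon choice. Statins block HMG-CoA reductase, the rate-limiting enzyme of cholesterol synthesis, and the study asked how the drug altered expression and splicing in liver cells. The array values used here averaged the probe sets of a gene, so they gave the mRNA level of each splicing factor and did not resolve exons or isoforms.

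None of the 50 splicing factor genes differed between the groups at an adjusted p below 0.05 (limma with Benjamini-Hochberg adjustment over 12797 1-symbol clusters), and the share of all clusters that did was 0%. No gene had an unadjusted p below 0.05 either, against 0.992% of all clusters. The difference in mean log2 value, atorvastatin minus control, ran from -0.20 for *HNRNPH2* to 0.12 for *PRPF31*, and no gene reached a 1.2-fold difference, which 1.23% of all clusters did. For 49 of the 50 genes the 95% confidence interval lay within 1.5-fold in either direction, as it did for 98.1% of all clusters. The exception was *HNRNPH2*. For 15 of the 50 genes the interval was within 1.2-fold, as it was for 2134 of all 12797 clusters. A difference of the size seen for most genes was therefore smaller than 3 arrays per group could tell from 0, since the interval reached a median of 0.24 to either side on the log2 scale.

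**Figure D1:**
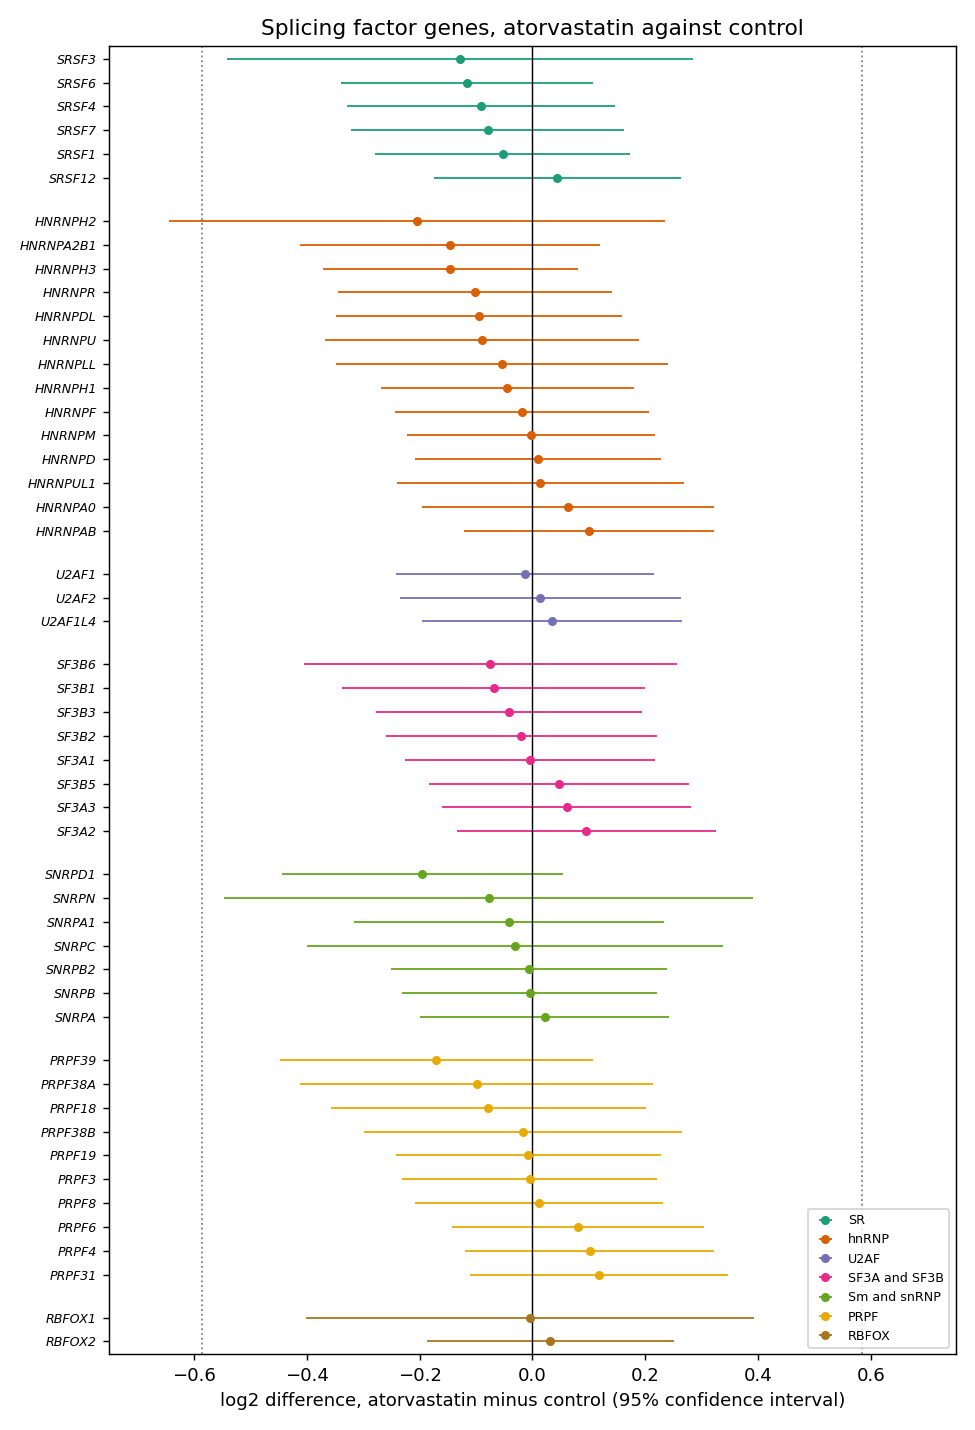
The difference in mean log2 value (horizontal axis, atorvastatin minus control) is plotted for each of the 50 genes by role group, with bars for the 95% confidence interval (3 arrays per group) and dotted lines at 1.5-fold. Every interval includes 0, and only that of *HNRNPH2* passes a dotted line.

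In 3 genes the control and treated arrays did not overlap: *HNRNPH3* and *SRSF6* were lower on every treated array, and *SF3A2* was higher on every treated array. Over all clusters, 2.68% were lower and 4.57% were higher on every treated array, or 7.25% in either direction, so that 3 of 50 was no more than the background. With 3 against 3 arrays, groups that do not overlap always give an exact two-sided permutation p of 0.1, the smallest the design allows, so that test separates none of them from the rest. The promoters of these genes are shown because they are the genes whose arrays separated. The windows come from RefSeq (GRCh38.p14) and run from 250 bases before to 50 bases after an annotated transcript start, 300 bases in all, read 5′ to 3′ on the strand of the gene. Capitals mark matches on either strand to any of 11 short motifs.

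HNRNPH3, chr10:68331443-68331742, plus strand: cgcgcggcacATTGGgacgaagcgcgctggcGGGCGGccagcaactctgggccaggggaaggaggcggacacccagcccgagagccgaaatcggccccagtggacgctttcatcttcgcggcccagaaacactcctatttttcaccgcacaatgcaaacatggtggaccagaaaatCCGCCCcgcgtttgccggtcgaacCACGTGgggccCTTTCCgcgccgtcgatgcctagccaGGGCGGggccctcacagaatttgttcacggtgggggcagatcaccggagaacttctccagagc
SRSF6, chr20:43457646-43457945, plus strand: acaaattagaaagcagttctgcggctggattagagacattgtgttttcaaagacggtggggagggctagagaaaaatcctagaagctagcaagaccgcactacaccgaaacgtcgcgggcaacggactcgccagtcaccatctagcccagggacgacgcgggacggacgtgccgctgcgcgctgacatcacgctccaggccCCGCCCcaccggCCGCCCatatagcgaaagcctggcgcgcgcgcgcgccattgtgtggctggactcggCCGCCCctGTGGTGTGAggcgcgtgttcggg
SF3A2, chr19:2236574-2236873, plus strand: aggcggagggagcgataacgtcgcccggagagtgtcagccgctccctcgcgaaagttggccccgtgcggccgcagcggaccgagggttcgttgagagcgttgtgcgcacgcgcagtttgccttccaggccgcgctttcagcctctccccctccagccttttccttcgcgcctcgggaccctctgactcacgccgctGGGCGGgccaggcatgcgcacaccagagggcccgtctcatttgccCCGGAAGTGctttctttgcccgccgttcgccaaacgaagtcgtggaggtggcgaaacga

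The *HNRNPH3* window is the most upstream of 3 annotated for that gene and held an E-box, a CCAAT box on the opposite strand, 3 GC boxes and a pyrimidine run. *SRSF6* held 3 GC boxes on the opposite strand and 1 match to the sterol regulatory element pattern, also on the opposite strand, which begins 27 bases past the start. *SF3A2* held a GC box and the short ETS pattern, which overlaps a match to the longer one. Windows were found for 45 of the 50 genes, 63 windows in all, and *PRPF3*, *PRPF39*, *RBFOX2*, *SF3B3* and *SNRPD1* had none.

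The short ETS pattern CCGGAAG occurred in 25.4% of the 63 windows against 10.3% of all 35116 windows, and the longer CGGAAGTG, which overlaps it, in 12.7% against 4.0%. The YY1 pattern GCCATNTTG occurred in 9.52% against 2.92%, and the E-box CACGTG in 15.9% against 7.26%. The BANP palindrome (TCTCG followed directly by CGAGA) occurred in 1.59% against 0.424%. That share is 1 window, an *HNRNPH3* window other than the one printed. As ratios, the remaining patterns that occurred in the 63 windows differed less. The GC box GGGCGG stood at 55.6% against 45.0%, CCAAT at 38.1% against 34.6% and the pyrimidine run CTTTCC at 31.7% against 26.3%. The sterol regulatory element pattern TCACNCCAC stood at 1.59% (1 window) against 1.13% and the TATA box TATAAA at 7.94% against 11.5%. The cyclic AMP response element TGACGTCA occurred in no window of the 45 genes and in 1.85% of all windows. Matches to short letters are a description of these windows only, and no test was made of the shares.

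SR proteins carry RNA recognition motifs and an arginine- and serine-rich tail. Of the 6 SR genes, 5 had a lower and 1 a higher mean in treated arrays, and the median difference was -0.09. *SRSF6*, an SR protein that binds exonic enhancers, had log2 values of 9.51, 9.54 and 9.59 in control arrays 1 to 3. In treated arrays 1 to 3 it had 9.40, 9.49 and 9.41. Every treated array lay below every control array, and the closest were 9.49 and 9.51. The difference was -0.12 (95% confidence interval -0.34 to 0.11, unadjusted p = 0.26, adjusted p = 1 by limma).

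*SRSF3*, the smallest SR protein, which also couples splicing to mRNA export, had the largest SR difference, -0.13, with a wide interval of -0.54 to 0.28. Its control values were 8.73, 9.15 and 9.40, and its treated values were 9.09, 8.97 and 8.83. The treated arrays all lay inside the range of the control arrays, whose SD was 0.335. Without replicate 3 (its control and treated array) the difference was 0.09, and without replicate 1 it was -0.37. *SRSF12*, whose cluster had a mean of 5.69, was the SR gene with a higher treated mean, by 0.04, with values of 5.76, 5.61 and 5.64 in control and 5.77, 5.69 and 5.68 in treated arrays. *SRSF1*, *SRSF4* and *SRSF7* lay between, at -0.05, -0.09 and -0.08.

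**Figure D2:**
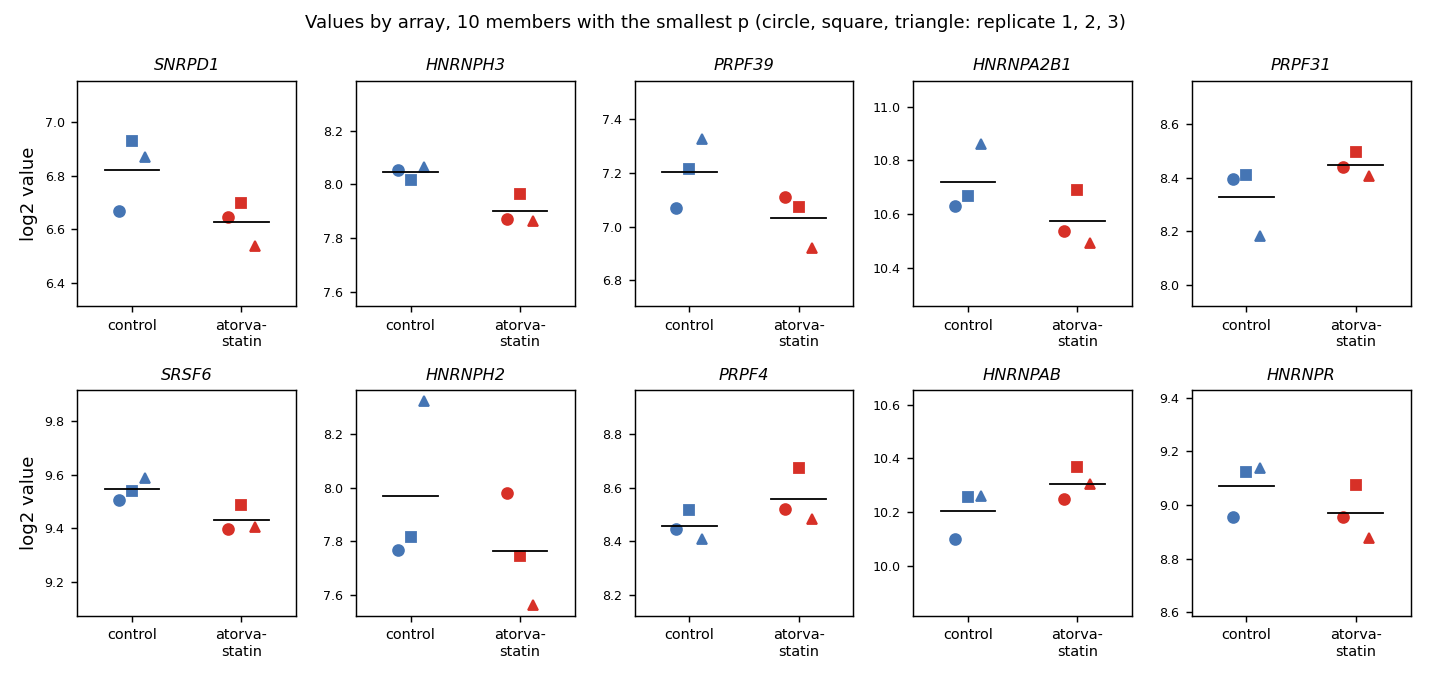
The log2 value on each array is plotted for the 10 genes with the smallest unadjusted p, with control arrays in blue, treated arrays in red and black lines at the group means; each panel has the same height on the log2 scale. Only *HNRNPH3* and *SRSF6* show groups that do not overlap.

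The hnRNP proteins bind nascent transcripts and many silence exons. Of 14 hnRNP genes, 10 had a lower and 4 a higher treated mean, with a median difference of -0.05. *HNRNPH3*, of the G-run-binding H and F family, had control values of 8.05, 8.01 and 8.07 and treated values of 7.87, 7.96 and 7.86. All treated arrays were lower, and the gap between the nearest arrays of the groups was smaller than the spread among the treated arrays. The difference was -0.15 (95% confidence interval -0.37 to 0.08, unadjusted p = 0.17 by limma). *HNRNPA2B1*, which binds UAG-containing RNA and sorts RNA cargo, had control values of 10.63, 10.67 and 10.86 and treated values of 10.54, 10.69 and 10.49. Its groups overlapped and the difference was -0.15 (-0.41 to 0.12).

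*HNRNPH2*, a close paralog of *HNRNPH1*, had the lowest difference of all 50 genes, -0.20 (95% confidence interval -0.64 to 0.23). Control arrays gave 7.77, 7.81 and 8.32, and treated arrays gave 7.98, 7.75 and 7.56, so that 1 high control array and 1 low treated array, both of replicate 3, set the direction. Without replicate 3 the difference was 0.07. *HNRNPH1* itself differed by -0.04, and probes of such closely related genes may respond to both transcripts. *HNRNPR*, a relative of the mRNA-binding protein SYNCRIP, differed by -0.10, and *HNRNPAB* by 0.10, the highest value of the hnRNP group, with intervals of -0.34 to 0.14 and -0.12 to 0.32. The remaining 8 hnRNP genes ranged from -0.10 in *HNRNPDL* to 0.06 in *HNRNPA0*.

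The Sm proteins form the ring around the U1, U2, U4 and U5 snRNAs, while U6 carries a ring of LSm proteins, and the other SNRP genes here encode proteins of the U1 and U2 particles. Of 7 genes, 6 had a lower treated mean and the median difference was -0.03. *SNRPD1*, a core Sm ring protein, had the smallest unadjusted p of all 50 genes. Its control values were 6.67, 6.93 and 6.87, and its treated values were 6.65, 6.70 and 6.54. Treated array 2 lay above control array 1, so the groups overlapped. The difference was -0.20, or 0.873-fold (95% confidence interval 0.735 to 1.04, unadjusted p = 0.11, adjusted p = 1 by limma).

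*SNRPB*, which encodes the Sm B proteins, had the highest signal among the 50 genes and differed by less than 0.01, with control values of 10.98, 10.97 and 11.01 and treated values of 10.97, 11.04 and 10.94. *SNRPN*, its imprinted neuronal paralog, had the lowest signal, at a mean of 4.03, and probes of the pair may respond to both transcripts. *SNRPN* values were 4.09, 3.82 and 4.28 in control and 4.57, 3.70 and 3.68 in treated arrays, so treated array 1 was the highest and treated array 3 the lowest of all. *SNRPA*, the U1 A protein, was the 1 gene of this group with a higher treated mean, at 0.02. *SNRPA1*, *SNRPB2* and *SNRPC* differed by -0.04, -0.01 and -0.03.

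SF3A and SF3B are the U2 subcomplexes that bind around the branch point. Of 8 genes, 5 had a lower and 3 a higher treated mean, and the median difference was -0.01. *SF3A2*, the middle subunit of SF3A, had control values of 9.15, 9.14 and 9.02 and treated values of 9.20, 9.17 and 9.23. The treated arrays were all higher, with 9.15 and 9.17 the closest values. The difference was 0.10 (95% confidence interval -0.13 to 0.32, unadjusted p = 0.36 by limma). *SF3B6*, the subunit that contacts the branch point adenosine, had the lowest difference in the group, -0.07, with treated values of 8.41, 8.49 and 8.13 around control values of 8.29, 8.39 and 8.58. *SF3B1*, the large scaffold of the complex and a frequent target of mutation in blood cancers, differed by -0.07 (-0.34 to 0.20).

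The PRPF genes are human counterparts of yeast pre-mRNA processing genes, and most act in the U4/U6.U5 tri-snRNP. Of 10 genes, 6 had a lower and 4 a higher treated mean, with a median of -0.01. *PRPF31*, a U4/U6 protein mutated in retinitis pigmentosa, had control values of 8.39, 8.41 and 8.18 and treated values of 8.44, 8.50 and 8.41. Treated array 3 fell just below control array 2, and control array 3 was the lowest. The difference was 0.12 (-0.11 to 0.35), the highest of all 50 genes. *PRPF4*, its partner in the U4/U6 particle, had control values of 8.45, 8.52 and 8.41 and treated values of 8.52, 8.67 and 8.48, a difference of 0.10 (-0.12 to 0.32).

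*PRPF39*, whose yeast counterpart belongs to the U1 particle, went the other way at -0.17 (-0.45 to 0.11). Its control values were 7.07, 7.22 and 7.33 and its treated values 7.11, 7.07 and 6.92. Treated array 1 lay above control array 1, and the groups overlapped. *PRPF8*, the protein at the catalytic centre of the spliceosome, had closely spaced arrays, with an SD of 0.036 in control and 0.0394 in treated arrays, and differed by 0.01 (-0.21 to 0.23). *PRPF19*, the ubiquitin ligase that names the NTC, a complex needed for spliceosome activation, differed by -0.01 (-0.24 to 0.23).

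The U2AF subunits recognise the 3′ splice site. *U2AF1*, the small subunit, had control values of 7.26, 7.26 and 7.32 and treated values of 7.16, 7.33 and 7.31. *U2AF2*, the large subunit that binds the polypyrimidine tract, had 9.08, 9.01 and 8.97 in control and 8.95, 9.19 and 8.97 in treated arrays. *U2AF1L4*, a paralog of the small subunit, whose probes may respond to both transcripts, had 6.31, 6.18 and 6.21 in control and 6.26, 6.19 and 6.35 in treated arrays. The groups overlapped for all 3 genes, and the differences were -0.01, 0.01 and 0.03. RBFOX proteins bind UGCAUG and are known mainly from neurons and muscle. *RBFOX2*, the widely expressed member, stood at 8.31, 8.35 and 8.32 in control and 8.38, 8.36 and 8.34 in treated arrays. The difference was 0.03 (-0.19 to 0.25). *RBFOX1*, the neuronal and muscle member, had a mean of 4.50, and its control values of 4.82, 4.50 and 4.18 spread more widely than its treated values of 4.44, 4.39 and 4.66.

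In total, 34 of the 50 genes (68%) had a lower and 16 a higher treated mean, against 44.2% lower and 55.8% higher among all clusters, and the median difference was -0.02 against 0.01. This lean rested on replicate 3. When treated and control arrays of the same number were set against each other, 20 genes were lower for replicate 1, 21 for replicate 2 and 38 for replicate 3, while 59.9%, 46.8% and 39.8% of all clusters were lower, an order that ran the opposite way. Same-numbered arrays did not deviate together, but 3 arrays per group cannot show whether same-numbered wells were paired. These counts therefore describe the arrays and are not read as pairs. With replicate 3 left out, 19 genes were lower and 31 higher, against 56% of all clusters lower, and the median difference was 0.02. Without replicate 1, 27 genes were lower, against 36.5% of all clusters, and without replicate 2, 33 were, against 43.9%. Without replicate 1, 6 genes (*HNRNPH2*, *PRPF38A*, *PRPF39*, *SNRPD1*, *SNRPN* and *SRSF3*) had an unadjusted p below 0.05 and none an adjusted one (limma, lowest adjusted p = 0.50), against 7.98% of all clusters at that unadjusted p. Without replicate 2 or 3 no gene did, against 0.5% and 3.34%. Of the 50 genes, 3 (*HNRNPH3*, *SNRPD1* and *SRSF6*) were lower for all 3 numbers, against 5.06% of all clusters. A further 8 of the 50 were higher for all 3 numbers, against 8.78% of all clusters. By role, the median of the SR genes stayed below 0 whichever array or replicate was left out (-0.13 to -0.03). Those of the hnRNP, Sm and snRNP, SF3A and SF3B and PRPF genes changed sign. For replicate 1 alone, *SRSF1*, *SRSF3*, *SRSF7* and *SRSF12* were higher on the treated array, and *SRSF4* and *SRSF6* were lower. The SR median had an SD of 0.084 over the 3 replicate numbers, close to the size of the median itself, -0.085.

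Clusters with high signal differed from clusters as a whole in this respect. The mean log2 value was at least 8 for 37 of the 50 genes, and among the 3212 clusters of the series at that level 38.5%, 40.7% and 69.3% were lower for replicates 1, 2 and 3. Over all those bright clusters 50.7% had a lower treated mean, and 23 of the 37 splicing factor genes did. The share was 46.6% at a mean of at least 6, where 31 of 46 splicing factor genes were lower. Without replicates 1, 2 and 3 in turn, 57%, 55.4% and 33.2% of the bright clusters were lower. The spread of all log2 values also differed between arrays, from an SD of 1.94 on control array 1 and 1.95 on treated array 3 to 2.04 on control array 3. On control arrays 1 to 3, 15, 32 and 33 genes lay above their own mean over the 6 arrays, and on treated arrays 1 to 3, 21, 30 and 12 did. Over all clusters the shares above their own mean were 57.9%, 46.5% and 39.3% on control arrays and 42.3%, 49.2% and 56.6% on treated arrays, highest where the splicing factor genes were fewest. Among clusters at a mean of at least 6 they were 44.6%, 52.9% and 50.8% on control arrays and 48.7%, 56.5% and 43.9% on treated arrays. These were lowest on control array 1 and treated array 3, where the splicing factor genes were also fewest. Those arrays had the narrowest spread. The part of that spread in the lean was not tested. The level of 8 and the counts by replicate and by array were chosen after the lean had been seen.

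**Figure D3:**
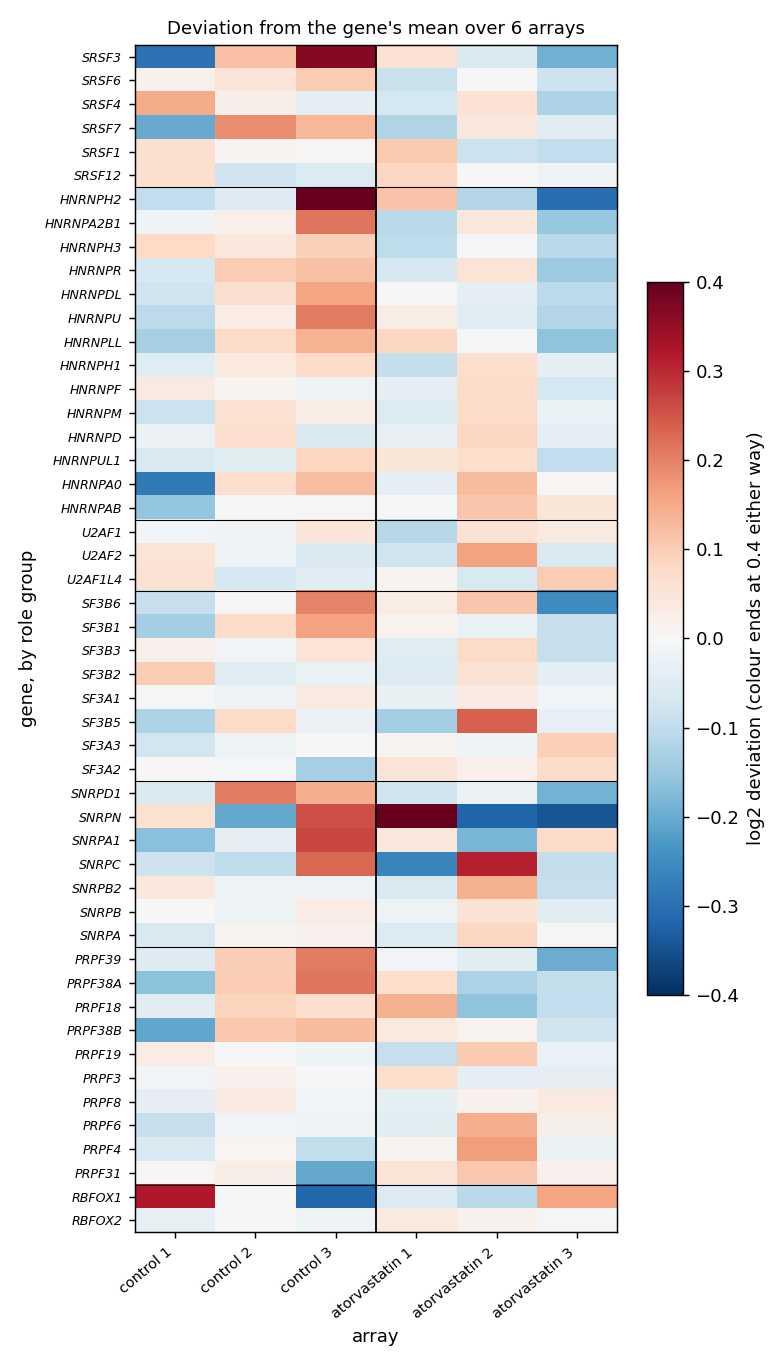
Each row is 1 of the 50 genes in role order and each column 1 array; colour gives the deviation in log2 units from the mean of the gene over 6 arrays, red above and blue below. Control array 3 is mostly red, while control array 1 and treated array 3 are mostly blue.

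**Figure D4:**
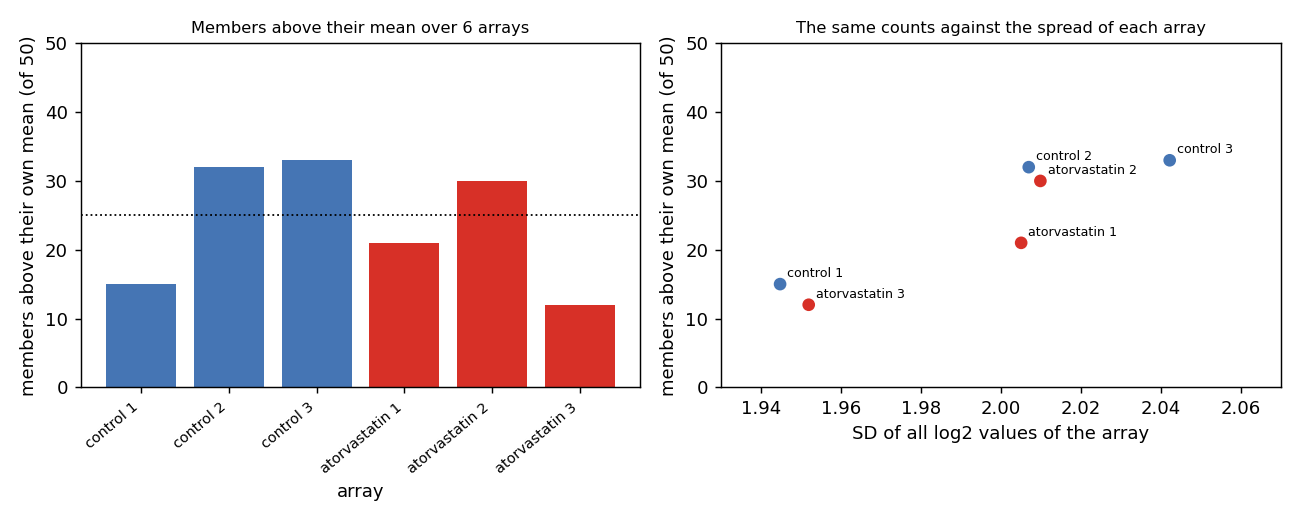
Left, bars give the number of the 50 genes above their own mean on each array (control in blue, treated in red, dotted line halfway up the axis). Right, the same number is plotted against the SD of all log2 values of the array. Control array 1, with 15 genes, and treated array 3, with 12, are lowest in number and in SD.

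Genes of the same machinery outside the 8 name families gave a similar picture. Of 112 such genes in 10 lists, 79 had a 1-symbol cluster, and their median difference was -0.03. A lower treated mean was seen in 49 (62%) and a higher one in 30. Lower means made up 44.2% of all clusters and 50.7% of those at a mean of at least 8. None passed the adjusted threshold. An unadjusted p below 0.05 (limma) was found for 1 of the 79, against 0.992% of all clusters. This was *ISY1*, a protein of the NTC, at 5.02, 5.40 and 5.41 in control and 5.48, 5.48 and 5.68 in treated arrays. Its signal was dim, with a mean of 5.41, below the level of 6 used as a filter. All treated arrays were higher, and the difference was 0.27 (0.01 to 0.53; unadjusted p = 0.042, adjusted p = 1 by limma). *LUC7L3*, a U1-associated protein, was at 7.41, 7.47 and 7.67 in control and 7.35, 7.34 and 7.20 in treated arrays, a difference of -0.22 (-0.50 to 0.05) with no overlap. *LSM8*, of the ring that binds U6 snRNA, differed by -0.23, with overlapping groups.

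*TIAL1*, a TIA-family protein that helps U1 find weak 5′ splice sites, differed by -0.17, and the SR-related protein *PNN* by -0.13, each lower on every treated array. *RBM8A*, a core protein of the exon junction complex, differed by 0.18 and *GEMIN7*, of the SMN complex that assembles Sm rings, by 0.13, each higher on every treated array. Of the 79 genes, 7 (8.86%) were lower on every treated array, against 2.68% of all clusters, and 5 (6.33%) were higher, against 4.57%. The count lower by replicate number was 34, 37 and 58 of 79, against 59.9%, 46.8% and 39.8% of all clusters. Among clusters at a mean of at least 8 the shares were 38.5%, 40.7% and 69.3%, which rose in the same order. The median level of the 79 genes was 8.17.

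The other genes with the smallest p of each list had overlapping groups, apart from *CLK3*. *TXNL4A* and *EFTUD2*, proteins of the U5 particle, differed by -0.15 and -0.09, and *ZCRB1*, of the minor spliceosome, by -0.12. *LSM2*, of the U6 ring, differed by -0.09, and *GEMIN2*, of the SMN complex, by -0.12. The helicases *AQR* and *DHX16* differed by -0.11 and 0.10, the NTC-associated *SYF2* by 0.14, the exon junction helicase *EIF4A3* by -0.08, the SR-related *SRRM1* by 0.06 and *NOVA2*, a regulator known from neurons, by 0.17. The kinases *CLK3* and *CLK4*, which phosphorylate SR proteins, differed by 0.09 and -0.11, and *CLK3* was higher on every treated array.

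The study had named 12 genes with altered splicing or promoter use, and 9 of them had a 1-symbol cluster; these were chosen by the study from RNA-seq of the same treatment. At the level of the whole gene none passed the adjusted threshold, and the differences ran from -0.19 in *SLC6A12*, a betaine and GABA transporter, to 0.08 in *AGER*, the receptor for advanced glycation end products. *KIF16B*, an endosomal kinesin, was at 6.69, 6.77 and 6.80 in control and 6.64, 6.66 and 6.61 in treated arrays, with no overlap, a difference of -0.12. *MYD88*, the adaptor of Toll-like receptors, differed by 0.05, *FCHO1* by 0.06, *AKAP9* by -0.10, *ZNF92* by -0.02 and *ZNF195* by 0.01. *RAP1GAP* differed by 0.0016. These values do not bear on isoform shares, which the gene-level averages cannot show.

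Sterol pathway genes give the scale of the drug response on the same arrays, and were picked with their response known. *ACSS2*, which makes acetyl-CoA from acetate, had control values of 8.63, 8.64 and 8.64 and treated values of 9.48, 9.62 and 9.50, a difference of 0.90. *MVD*, *LSS* and *HMGCS1*, enzymes of cholesterol synthesis, differed by 0.74, 0.68 and 0.73. In all 4 genes every treated array lay above every control array, with unadjusted p from 4.2e-05 to 0.0018, but the lowest adjusted p was 0.54 by limma, so they did not pass the threshold. The 4 calls depended on the variance model: limma's trended, robust prior brought their adjusted p to between 8.8e-05 and 0.015, while no splicing factor gene passed. The largest difference among the splicing factor genes, -0.20, was smaller in size than the lowest of these 4, 0.68.

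**Figure D5:**
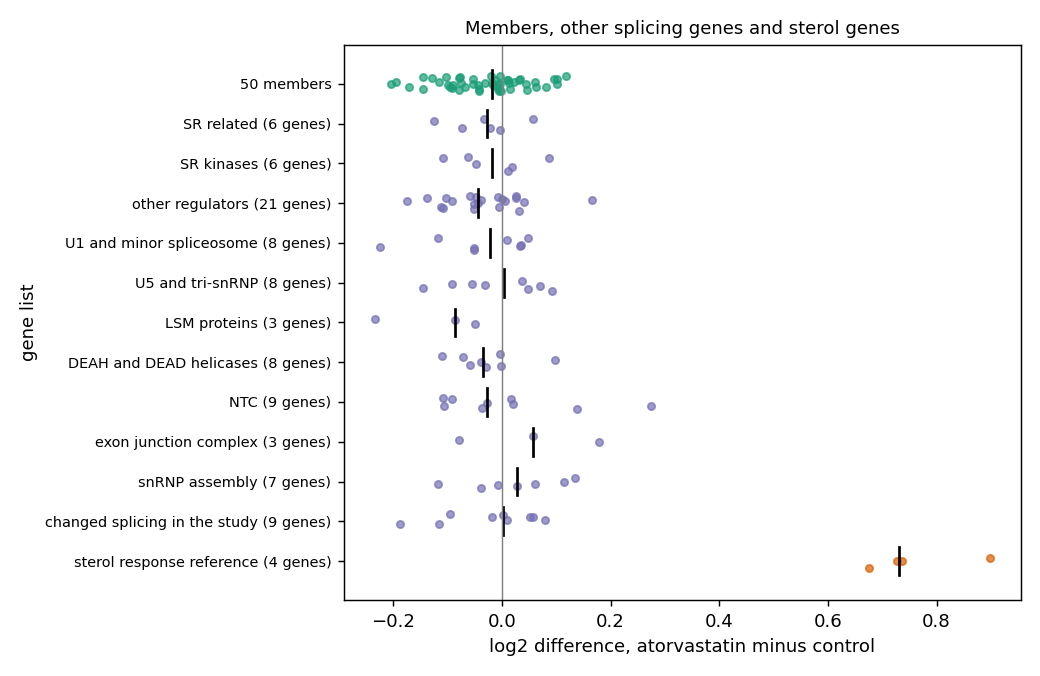
Each point is 1 gene, placed by its difference in mean log2 value (horizontal axis, atorvastatin minus control), with a black bar at the median of each list; the top row holds the 50 splicing factor genes. The splicing lists lie between -0.23 and 0.27, and the 4 sterol genes between 0.68 and 0.90.

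The arrays had median log2 values of 6.66 to 6.72 and correlated with each other at 0.990 to 0.997 over genes, which are not independent replicates. The hepatocyte markers with a 1-symbol cluster (5 of 9 listed, among them *ALB* and *APOB*) had mean log2 values of 9.56 to 12.26. Markers of fibroblasts (5 of 5) stood at 2.57 to 7.19, endothelium (4 of 4) at 4.0 to 5.60, leukocytes (2 of 5) at 2.67 to 3.66 and neurons (3 of 4) at 4.61 to 5.45, and none of these differed at an unadjusted p below 0.05. Levels of different clusters come from different probes and do not rank genes by abundance.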

How the data were processed

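Total RNA of 6 HepG2 samples (3 control, 3 treated) was hybridised to exon arrays (GeneChip Human Exon 1.0 ST). The deposited log2 values were made by the authors with RMA in Partek, on core probe sets averaged per transcript cluster, which hides exon-level change. The submitters' processing notes name Partek, RMA and hg18; versions are not given in the sources used here. The number of arrays limits the precision.

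Of 16634 clusters, 12797 carried 1 gene symbol, 1934 several and 1903 none. Symbols came from the platform annotation, and 12774 clusters had an Entrez ID in RefSeq with no differing symbol. The deposited values were fitted with limma 3.58.1 (R 4.3.3; lmFit and eBayes) with treatment and replicate number as terms, the latter following the paired tests in the study's methods, and p-values were adjusted by Benjamini-Hochberg over 12797 clusters with a threshold of 0.05. The fit was tested on simulated data. Figures and promoter searches used Python 3.11.15.

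The genes named were the 10 with the smallest p, the highest and lowest difference in each role group, the highest and lowest level, all members of groups of at most 4, the 2 smallest p values of each other list, the study's genes of altered splicing and 4 sterol genes; *HNRNPH1*, *PRPF8*, *PRPF19*, *SF3B1* and others named besides were added after their values had been seen. Members and lists were chosen with earlier results of these data known. The share of promoters is given for each of the 11 motifs searched. Alternatives changed the block, variance model, dim filter, scaling, clusters adjusted over, test and arrays included. Clusters shared by several gene symbols were not used for the 50 genes.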

Additional observations from a re-analysis of the deposited data

How the results depend on the processing

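None of the 50 splicing factor genes passed the adjusted threshold under any alternative run. Over all clusters 0 passed with the replicate block, 127 had an unadjusted p below 0.05, 4 passed without the replicate block and 21 with a trended and robust variance (limma); leaving out arrays gave 0 to 32. With the block kept, 16, 0 and 32 passed without replicates 1, 2 and 3; with single arrays left out and no block, 6 passed without control array 1 and 0 without any of the other 5. Of the sterol genes, *ACSS2* (adjusted p = 0.016), *LSS* (0.029) and *MVD* (0.040) passed without the block and *HMGCS1* (0.25) did not (limma). The methods' t-test, paired or not, gave 0. Same-numbered arrays deviated with correlations of -0.46, 0.07 and -0.56. With 3 arrays per group, and array spreads that differ, these values cannot show whether the wells were paired. Without the block no splicing factor gene passed and the smallest p was 0.054 (*HNRNPH3*, limma).

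The count of genes with a higher treated mean ranged from 14 to 31 when arrays were left out, and the median difference from -0.05 to 0.02; restricted to a mean of at least 8, a limit added after seeing the data, the count was 14 and the median -0.0061. The sign of some differences turned with the arrays left out: *HNRNPH2* ranged from -0.41 to 0.072, *SRSF3* from -0.37 to 0.089, *SNRPN* from -0.37 to 0.18, *SF3B6* from -0.17 to 0.11, *RBFOX1* from -0.24 to 0.18, *SNRPA* from -0.015 to 0.055, *SNRPB* from -0.046 to 0.030, *U2AF1* from -0.057 to 0.041, *U2AF1L4* from -0.020 to 0.076 and *U2AF2* from -0.068 to 0.088. Among the other genes *AKAP9* ranged from -0.28 to 0.019, *CLK4* from -0.27 to 0.033, *FCHO1* from -0.031 to 0.22, *RAP1GAP* from -0.041 to 0.061, *ZNF195* from -0.13 to 0.12 and *ZNF92* from -0.19 to 0.11. Medians ranged from -0.107 to 0.013 for hnRNP, -0.071 to 0.034 for Sm and snRNP, -0.058 to 0.032 for SF3A and SF3B and -0.016 to 0.021 for PRPF genes, and, with no change of sign, *HNRNPA2B1* from -0.23 to -0.035, *PRPF39* from -0.28 to -0.052 and *HNRNPR* from -0.16 to -0.023. Repeated quantile normalization turned *RAP1GAP* to -0.0025. The causes were not tested.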

Other observations

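Some symbols with the chosen prefixes share a cluster with another gene. Of 13 such symbols, 10 have no cluster of their own, so their values cannot be given to 1 gene. The 10 include *HNRNPA1P6* and *HNRNPA1P27*, which are pseudogene symbols caught by the prefix. The cluster of *SRSF5* and *LOC100289511* was at 8.82, 8.80 and 8.83 in control and 8.60, 8.77 and 8.63 in treated arrays, lower on every treated array, with a difference of -0.15 (95% confidence interval -0.39 to 0.08). The cluster of *SRSF2* and *MIR636* differed by -0.07 and that of *HNRNPK* and *MIR7-1* by 0.03. The cluster of *CDC26* and *PRPF4* differed by -0.34 (-0.72 to 0.04), with treated array 1 at 5.22 and the other 5 arrays at 5.97 to 6.32, while the cluster of *PRPF4* alone differed by 0.10. The cluster of *TFPT* and *PRPF31* differed by -0.02 (-0.28 to 0.24), while that of *PRPF31* alone differed by 0.12. The cluster of *ZNF624* and *SRSF6* differed by -0.09, and that of *SRSF6* alone by -0.12.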
